A study of Homo sapiens with 3 samples.

Results

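DNA replication and mitosis genes of 95D, an established human lung cancer cell line, were described in 3 libraries, 1 each from control, glucose-deficient and glutamine-deficient culture of 48 h. The cells are labelled wild type, and the same pulldown of RNA with the biotinylated long non-coding RNA DAMER is described for all 3 cultures, while by their titles the samples are RNA sequencing, so it is not settled what the control library holds. Deprived cells had 10% dialyzed serum, and the serum of the control medium is given only for routine culture. Members were protein-coding genes chosen by symbol: MCM followed by a digit, ORC, RFC, POLA, POLD, POLE, GINS, CENP, KIF, BUB, AURK, PLK, CCNA, CCNB and CCNE, with PCNA, TOP2A, MKI67, CDK1, RRM1 and RRM2. The table pairs the control with each deprived library in a block of its own. The rule gave 66 of the 5932 genes of the glucose block and of the 5928 of the glutamine block, with 205 listed regions, and the regions and control values of all 66 were equal in both blocks. Of the 66, 53 act in replication or mitosis, or in MCM8's case recombination. Among the 53 is CENPJ, a centriole protein, placed with the kinetochore genes by its name. The other 13 do not match the label by function or only in part: 8 are kinesins used mainly in transport or with roles outside mitosis as well, and 5 share a name prefix only.

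Before S phase the origin recognition complex (ORC) loads the MCM2 to MCM7 ring onto DNA. Together with CDC45 and the GINS complex it becomes the helicase that opens the fork. Polymerase alpha primes synthesis, polymerases epsilon and delta extend the strands, and the sliding clamp PCNA, loaded by RFC, holds them to the template. In mitosis, CENP proteins build the kinetochore on centromeric chromatin, kinesins of the KIF family move or shorten spindle microtubules, and BUB proteins delay anaphase until chromosomes are attached. CDK1 with cyclins A and B, the Aurora kinases and the Polo-like kinases drive entry and progress. In dividing cells, E2F factors act on many replication genes. Many mitosis genes carry a CHR element, read by MuvB complexes, and CCAAT boxes, bound by NF-Y.

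The members' promoters held the letters of these elements in shares that differed by role, a feature the choice by name did not use. RefSeq promoters (GRCh38.p14, 250 bases before to 50 after a start site) were matched for 58 of 66 genes. There was no entry for MCM4, BUB3, CENPL, MCM5, CENPH, POLD3, CENPM and CENPJ. E2F-type letters (TTTCCCGC, TTTCGCGC, TTTGCCGC or TTTGGCGC, both strands) were searched in the 74 promoters matched. The ring genes are shown because all 6 were listed and they hold 23.8% of the members' control fragments, and MCM2, MCM3, MCM6 and MCM7 each held the letters in a promoter. The letters are in capitals in windows of 60 bases, written 5′ to 3′ along the gene's strand. Where the letters and their reverse complement overlap, the capitals cover both.

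MCM3, chr6:52284713-52284772, minus strand: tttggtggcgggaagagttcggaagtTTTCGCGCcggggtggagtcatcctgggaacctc
MCM2, chr3:127598387-127598446, plus strand: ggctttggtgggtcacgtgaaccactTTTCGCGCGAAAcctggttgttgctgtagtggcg
MCM7, chr7:100101373-100101432, minus strand: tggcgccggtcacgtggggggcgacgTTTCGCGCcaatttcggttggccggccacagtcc
MCM6, chr2:135876500-135876559, minus strand: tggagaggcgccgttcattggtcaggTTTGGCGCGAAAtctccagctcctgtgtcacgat

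Among the 20 licensing, helicase, polymerase and clamp genes with a promoter, 11 held E2F letters: GINS1, GINS3, MCM2, MCM3, MCM6, MCM7, PCNA, POLA1, POLA2, POLE and RFC3. By promoter this was 11 of 27 (40.7%, exact binomial interval 22.4 to 61.2%), against 6.22% of promoters of the other listed protein-coding genes and 3.31% of all 35116 promoters. Promoters of 1 gene can overlap, so they are not independent and the intervals are too narrow. The CHR letters (TTTGAA, both strands) were shown for CENPF, PLK1 and CCNB2 of the mitosis group counted below, and for MKI67, which is outside it. These genes were chosen after the matches were seen. Counted from the start site, the letters shown began at −29 in PLK1 and CCNB2, −47 and −29 in MKI67 and 40 in CENPF. Matches not shown began at −194 and −151 in TOP2A and at −161 in 1 CDK1 promoter.

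CENPF, chr1:214603185-214603244, plus strand: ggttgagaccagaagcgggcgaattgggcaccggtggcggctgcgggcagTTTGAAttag
PLK1, chr16:23678833-23678892, plus strand: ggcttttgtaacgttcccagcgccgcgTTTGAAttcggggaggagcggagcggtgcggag
CCNB2, chr15:59105090-59105149, plus strand: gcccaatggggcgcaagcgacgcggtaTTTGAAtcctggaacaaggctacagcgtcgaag
MKI67, chr10:128126420-128126479, minus strand: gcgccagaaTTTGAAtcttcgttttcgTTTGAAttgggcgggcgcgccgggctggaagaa

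Of 20 kinetochore, mitotic kinesin, kinase, checkpoint and cyclin genes with a promoter, 10 held the CHR letters: BUB1B, CCNB2, CDK1, CENPF, CENPO, KIF11, KIF18B, KIF20B, KIFC1 and PLK1. By promoter this was 11 of 23 (47.8%, 26.8 to 69.4%), against 10.1% in the other listed protein-coding genes and 15.2% of all promoters. CHR letters were in 1 of the 20 replication genes, POLE3, and E2F letters in 1 of the 20 mitosis genes, CDK1, which held both. The 13 other kinesins and prefix genes held E2F letters in 0 and CHR letters in 1 gene, KIF5B. RRM1, RRM2, TOP2A, MKI67 and MCM8 are in none of these groups. Of them, RRM1, TOP2A and MKI67 held CHR letters and MCM8 held E2F letters. Over all 74 promoters of members, 18.9% held E2F letters (10.7 to 29.7%) and 21.6% CHR letters (12.9 to 32.7%). The CHR interval includes the 15.2% of all promoters. CCAAT letters (both strands) were in 69.6% of mitosis promoters (47.1 to 86.8%), 55.6% of replication promoters (35.3 to 74.5%) and 44.4% of those of other kinesins and prefix genes (21.5 to 69.2%), against 35.9% and 34.6% in the same backgrounds. The intervals of the last 2 groups include the 35.9%. A match describes letters only, not a bound site.

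**Figure D1:**
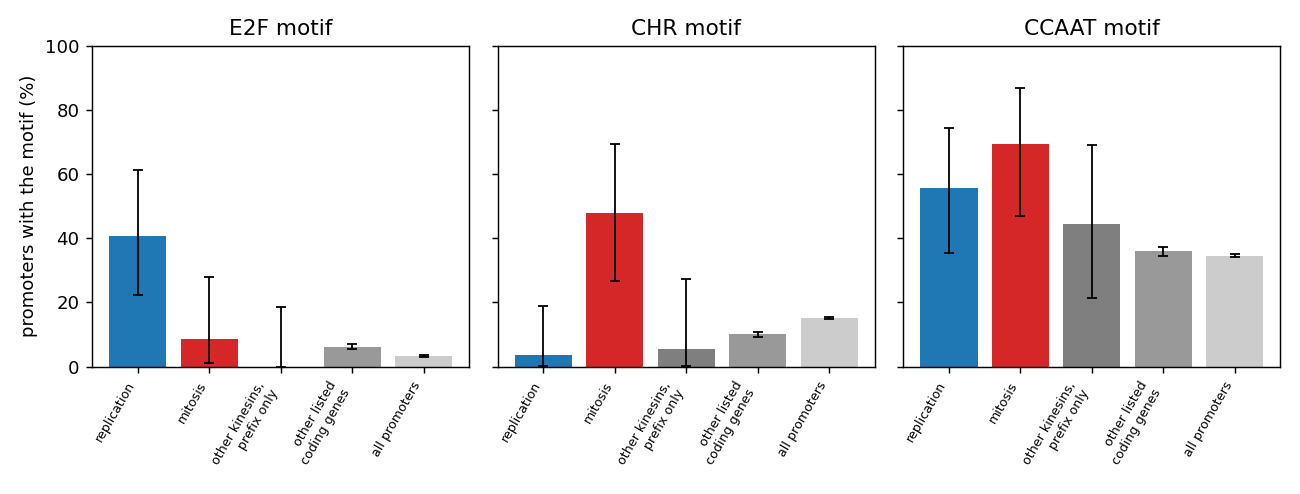
Share of promoters (%) with E2F, CHR and CCAAT letters in replication members (27 promoters), mitosis members (23) and other kinesins and prefix genes (18). Backgrounds are other listed protein-coding genes (5179) and all promoters (35116). RRM1, RRM2, TOP2A, MKI67 and MCM8 are in no group of members. Bars are shares and lines exact binomial intervals; E2F letters reach 40.7% in replication and CHR letters 47.8% in mitosis promoters.

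The values are RPM, read counts scaled to the size of each library. By their steps the control library held 3781862 fragments, the library without glucose 18775818 and the library without glutamine 18301607, and the offset in each value, 0.5 fragment per region, is not signal. ATF4 is a transcription factor of the amino acid and stress response. It is grouped here with its pseudogenes and the gene RNF157 as the ATF4 family. The family held 99.9% of the fragments of each deprived library and 0.0253% of the control. It was left out of the protein-coding nuclear genes used for comparison. With 0 fragments counted, a gene could still reach 0.793 RPM in the control, and 0.160 and 0.164 RPM without glucose and without glutamine. Every group is 1 library, so no difference has a replicate check. Intervals cover counting error only, and fewer cells in a state cannot be told apart from less RNA per cell. Of the marker lists used to check the cell type, 1 of 5 epithelial (KRT8) and 2 of 4 mesenchymal genes (VIM and ZEB1) were listed. The list held 0 of 3 lung lineage markers, and 0 of 13 leukocyte, endothelial, fibroblast and erythroid markers.

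The members were listed more often than protein-coding genes as a whole: 66 of 134 annotated protein-coding genes that the name rule takes (49.3%), against 22.6% of all 19951. Every region listed for a gene and lower in the deprived library had at least 9.5 control fragments. A gene that is not listed has no value here. All 6 ring genes, both POLA genes and all 3 BUB genes were listed. So were 4 of 5 RFC genes, 3 of 4 POLD, 2 of 4 POLE, 2 of 4 GINS, 2 of 6 ORC and 11 of 21 CENP genes. Of the cyclin genes CCNA2 and CCNB2 were listed, 2 of 7, of the Aurora kinases AURKB, 1 of 3, of the Polo-like kinases PLK1, 1 of 5, and of the kinesins 14 of 42.

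In the control library the 66 genes summed to 7609.5 fragments, 0.201% of the library, or 2039 RPM. Single genes ranged from 3.83 RPM (14 fragments, CENPJ, a centriole protein) to 182 RPM (680.5 fragments, CENPF), with a median of 18.8 RPM against 15.7 RPM over 4502 tested protein-coding nuclear genes. The 10 genes with the most RPM, CENPF, MCM4, MCM3, MKI67, PCNA, MCM2, MCM7, POLA1, TOP2A and KIF5B, held 52.1% of the members' fragments. The number of listed regions followed the fragments closely (Spearman's rho 0.91 across 66 genes, a description, since a region enters only with enough fragments) and merged exon length only loosely (0.31). Levels of different genes are compared below as control fragments per kilobase of merged exons. Control fragments followed merged exon length only weakly (Spearman's rho 0.21 across the members and 0.089 across other protein-coding nuclear genes). The order per kilobase therefore also depends on annotated length, which the intervals do not cover. The per-kilobase scale also misses fragments outside listed regions. Its median was 15.8 for the members and 11.8 for 4430 other protein-coding nuclear genes, whose middle 50% spanned 5.27 to 27.7, and 37 of the 66 lay above that 11.8.

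**Figure D2:**
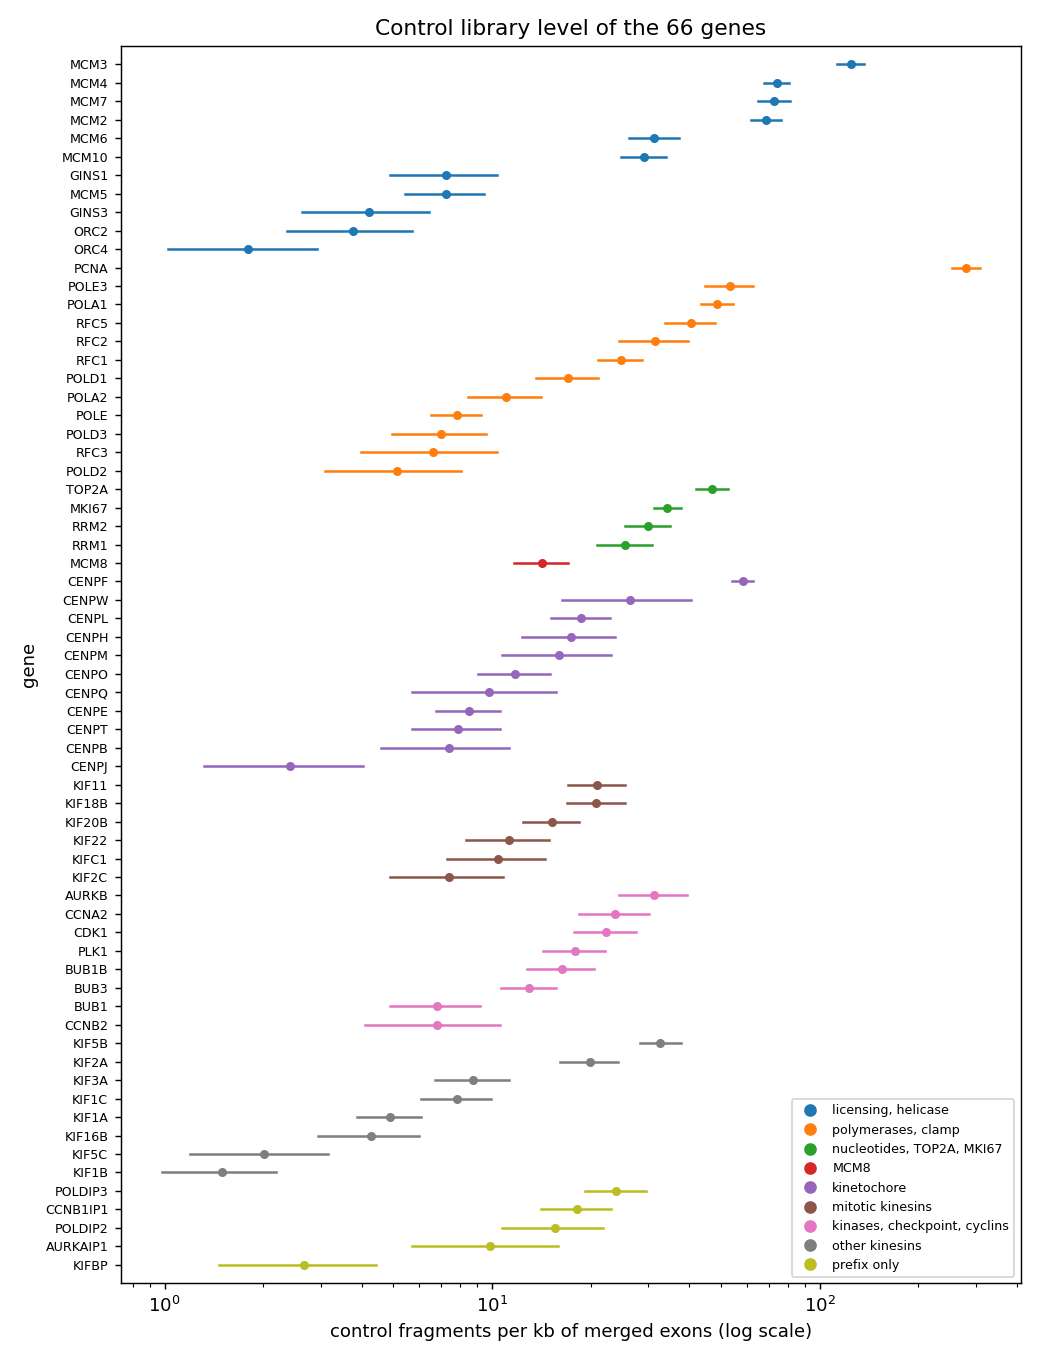
Control fragments per kilobase of merged exons (log axis) for each of the 66 genes, grouped and coloured by role; points are values of 1 library and lines exact Poisson intervals. PCNA, at 280, and MCM3, at 124, lie above all others, and KIF1B is lowest at 1.50.

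The licensing and helicase genes made up the largest share of the members' control fragments, 2057 of 7609.5 (27.0%). MCM3 (chromosome 6, 52264009 to 52284881, minus strand) stood at 121 RPM in the control, 0.320 without glucose and 0.273 without glutamine (454, 1 and 0 fragments). MCM4 stood at 138, 0.240 and 0.246 RPM, with 517 control fragments, and 0 in either deprived library. MCM2 (chromosome 3, 127598223 to 127622436, plus strand) gave 90.0, 0.240 and 0.191 RPM, with 337, 1 and 0 fragments. MCM7 (chromosome 7, 100092728 to 100101940, minus strand) gave 85.1, 0.133 and 0.137 RPM, with 319.5, 0 and 0 fragments. For each of these the control is high and both deprived libraries are at or within 1 fragment of 0. Levels per kilobase differed within the ring. MCM3 led at 124 control fragments per kilobase (interval 113 to 136), followed by MCM4 at 74.1 (67.9 to 80.8), MCM7 at 72.8 (65.1 to 81.3) and MCM2 at 68.7 (61.6 to 76.5), whose intervals overlap each other. MCM6 was at 31.3 (26.2 to 37.2) and MCM5 at 7.22 (5.41 to 9.45), 17.2-fold below MCM3. Part of this gap is exon length: 53 control fragments on 7338 bases for MCM5, and 454 on 3650 bases for MCM3. MCM5 had 3 listed regions of 15 to 23 control fragments each, and MCM3 had 10 of 17.5 to 144. MCM10, which helps to activate the loaded ring, was at 29.1 control fragments per kilobase. GINS1 and GINS3 were at 7.25 and 4.21, ORC2 at 3.77 and ORC4, lowest of this role, at 1.79 control fragments per kilobase.

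PCNA had the highest control level per kilobase of all 66 genes, 280 fragments (253 to 308) on 1471 bases of exons (chromosome 20, 5114953 to 5126626, minus strand). It stood at 109 RPM in the control and 0.107 and 0.109 RPM in the glucose- and glutamine-deficient libraries, which are 411.5, 0 and 0 fragments. GENCODE holds 3 PCNA pseudogenes, none of them listed, and how reads of near-identical copies were assigned is not given. After PCNA came POLE3, a histone-fold subunit of polymerase epsilon, at 53.2 control fragments per kilobase, and POLA1, the catalytic subunit of polymerase alpha, at 48.6. RFC5, RFC2 and RFC1 of the clamp loader followed at 40.5, 31.4 and 24.7, and POLD2, a subunit of polymerase delta, was lowest of this role at 5.14.

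The largest region of POLA1 was also listed under another gene. POLA1 had 308 control fragments in 6 regions, and 139.5 of them (45.3%) lay in that region, which the table gives under EEF1B2P3 too. This processed pseudogene of the translation factor gene EEF1B2 lies at chromosome X, 24788392 to 24789069, on the minus strand. It lies inside POLA1, which runs on the other strand from 24693919 to 24996986. Without that region POLA1 had 168.5 control fragments, or 26.6 per kilobase. EEF1B2 itself was listed with 36.5 control fragments in 1 region. Which gene those reads came from was not tested. Of the members' 205 regions, 13, in 9 genes, were shared with another gene. All fragments of CENPL, POLA2 and KIF2C lay in such regions. KIF2C shared its region with an antisense gene and POLA2 its regions with a second protein-coding gene. The share was 74.3% for MCM8, 48.2% for POLD1, 36.2% for RRM1 (with RRM1-AS1), 76.0% for POLDIP3 and 25.3% for KIF2A.

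**Figure D3:**
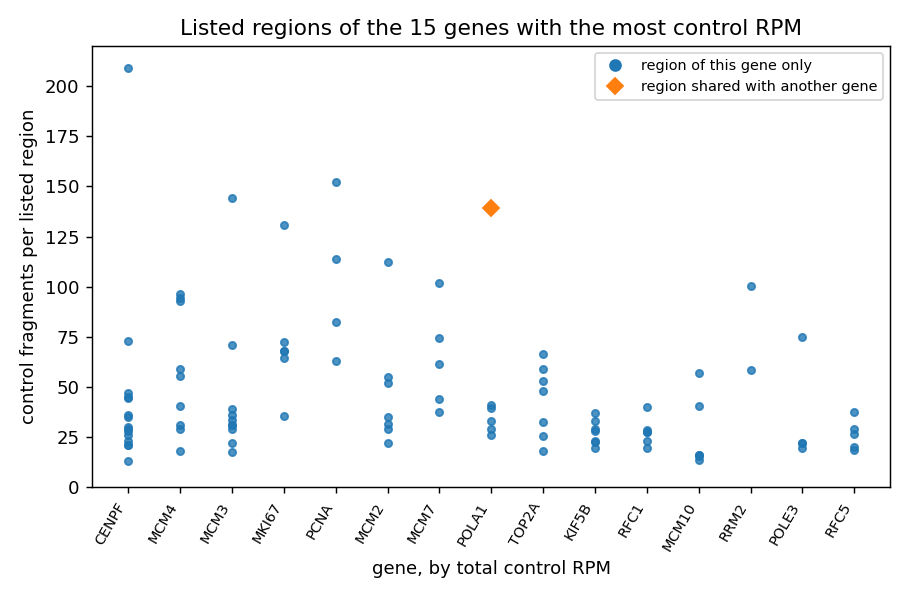
Control fragments of each listed region (vertical axis) for the 15 genes with the most control RPM (horizontal axis, highest at left); circles are regions of that gene only and diamonds regions shared with another gene. The highest region of CENPF holds 209 fragments, and the POLA1 diamond, shared with EEF1B2P3, 139.5.

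TOP2A (chromosome 17, 40388516 to 40417950, minus strand), the topoisomerase that untangles sister DNA, stood at 80.9 RPM in the control, 0.293 without glucose and 0.191 without glutamine, which are 302.5, 2 and 0 fragments. MKI67, the gene of the Ki-67 proliferation stain (chromosome 10, 128096659 to 128126385, minus strand), stood at 117, 0.160 and 0.164 RPM, which are 439.5, 0 and 0 fragments. The ribonucleotide reductase genes RRM2 and RRM1 had 159 and 106.5 control fragments and 0 in both deprived libraries. Per kilobase the control levels were 47.0 for TOP2A, 34.3 for MKI67, 29.9 for RRM2 (25.4 to 34.9) and 25.5 for RRM1 (20.9 to 30.8). With all regions counted, the last 2 do not differ beyond their intervals. Without its shared region RRM1 was at 16.3. RRM2P3, a processed pseudogene of RRM2, was listed with 92 control fragments, so the RRM2 value is uncertain. MCM8, a helicase of homologous recombination, was at 14.2 control fragments per kilobase, and at 3.64 without its shared regions.

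Among kinetochore genes CENPF (chromosome 1, 214603195 to 214664588, plus strand), which encodes a large microtubule-binding protein of the outer kinetochore, led with 182 RPM in the control against 0.399 and 0.410 RPM in the glucose- and glutamine-deficient libraries, which are 680.5, 0 and 0 fragments. Its 15 regions, the most of any member, ranged from 13 to 209 control fragments, with a median of 30.0. Per kilobase CENPF was at 58.2 control fragments (53.9 to 62.8). CENPW, a histone-fold protein of the inner kinetochore, followed at 26.4 (16.4 to 40.4) and CENPL at 18.7, all of it in a shared region. CENPJ, a centriole protein grouped here by its name, was lowest, at 2.41 (1.32 to 4.04). Next lowest was CENPB at 7.39. CENPC was not among the listed genes, while its processed pseudogene CENPCP1 was, with 23 control fragments.

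KIF11, the plus-end motor that separates spindle poles, was highest of the mitotic kinesins at 21.0 control fragments per kilobase. KIF18B, a motor acting at microtubule ends, followed at 20.8 and KIF20B, a motor of cytokinesis, at 15.3. KIF2C, a microtubule depolymerase, was lowest at 7.41, all of it in a shared region. Of the kinases and cyclins, AURKB, of the chromosomal passenger complex, was at 31.2, CCNA2 (cyclin A2) at 23.8, CDK1 at 22.3 and CCNB2 (cyclin B2), the lowest, at 6.78 control fragments per kilobase. CDK1 stood at 23.4 RPM in the control and 0.0533 and 0.0546 RPM in the deprived libraries, which are 87.5, 0 and 0 fragments. PLK1, the kinase of centrosome maturation and spindle assembly, stood at 22.9, 0.133 and 0.0820 RPM, which are 85, 1 and 0 fragments.

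Of the kinesins with other roles, KIF5B, the heavy chain of conventional kinesin, was at 32.7 control fragments per kilobase, above each of the 6 mitotic kinesins listed. KIF2A followed at 19.9 (14.9 without its shared region), KIF3A at 8.75 and KIF1B, lowest of all 66, at 1.50. The 5 genes that share a prefix only ranged from 2.66 (KIFBP, a kinesin-binding protein) to 24.0 (POLDIP3, an interactor of polymerase delta), with CCNB1IP1 and POLDIP2 at 18.2 and 15.6 control fragments per kilobase. Without its shared regions POLDIP3 was at 5.75, below CCNB1IP1 and POLDIP2.

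Against the control, each of the 66 genes was lower in RPM by a factor of 2 or more without glucose, as were 99.9% of all 5931 genes tested, but with the ATF4 family left out of the totals 0 were lower and 62 higher, and with median-of-ratios scaling 0 and 66. Without glutamine all 66 were likewise lower in RPM, as were 99.9% of 5928 genes, and 0 were lower and 62 and 66 higher under the same 2 scalings. The 61 members at 0 fragments without glucose, and all 66 without glutamine, owe a higher value to the offset. The count is near that of all genes and is no result about these. In RPM the median log2 ratio was −4.21 for the members in each comparison, against −3.92 and −3.93 over all genes, and the members' median control level was above that of protein-coding genes. For the 61 only a bound can be given, with a floor of 3 fragments per library: scaled by library totals they were lower by at least 23.2-fold (CENPJ) to at least 1126-fold (CENPF), and with the ATF4 family out of the totals no bound passed 1-fold (CENPF 0.776). The bounds follow the control level.

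A fragment without glucose was kept by 5 of 66 members (7.58%), against 9.53% of 4502 protein-coding nuclear genes and 9.07% of all 5931 genes. With that library thinned to the smallest library total in a single random draw, 2 members kept one. The 5 were MCM2, MCM3, PLK1, RFC1 and TOP2A. TOP2A kept 2 fragments in a region with 53 in the control, and its other 6 regions were at 0. It was 751-fold lower by library totals (206 to 6239), but 1.93-fold higher with the ATF4 family out of the totals. PLK1, with 1 fragment, was 422-fold lower by totals (73.7 to 16862) and 3.44-fold higher without the family. RFC1, with 1 fragment, was 824-fold lower (146 to 32745) and 1.76-fold higher. MCM3, with 1 fragment, was 2254-fold lower (403 to 89221), 1.55-fold lower without the family, and 1.07-fold lower with median-of-ratios scaling. MCM2, with 1 fragment, was 1673-fold lower (298 to 66278) and 1.15-fold lower without the family, but 1.26-fold higher with median-of-ratios scaling. By library totals the intervals of the 5 genes overlap each other. No interval was computed for the folds under the other scalings. They rest on 1 or 2 fragments per gene, so their directions are not settled.

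In all, the members kept 6 fragments for 7609.5 in the control, 0.788 per 1000 (exact Poisson interval 0.289 to 1.72). A single random thinning to the smallest library total, done for the members only, gave 0.263 per 1000. Other protein-coding nuclear genes kept 674 for 498062, or 1.35 per 1000 (1.25 to 1.46), a value inside the members' interval. Without NOL4L, RAD51B and UQCC1, chosen after their values were seen, it was 1.21. At the rate of 1.35, CENPF would have had 0.921 fragments and all members together 10.3, so a value of 0 for a single member is within counting error. Without glutamine the members had 0 fragments. This allows up to 0.394 per 1000 control fragments by the floor of 3 fragments, or 0.485 by the exact Poisson interval. Other protein-coding nuclear genes kept 35 there, 0.0706 per 1000 (0.0491 to 0.0981), a rate that gives 0.537 fragments for all members, and 0.0464 per 1000 without the same 3 genes, of which RAD51B alone held 12 of the 35 fragments. Of the members 0 of 66 had a fragment there, against 0.533% of 4501 such genes and 0.776% of all 5928.

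**Figure D4:**
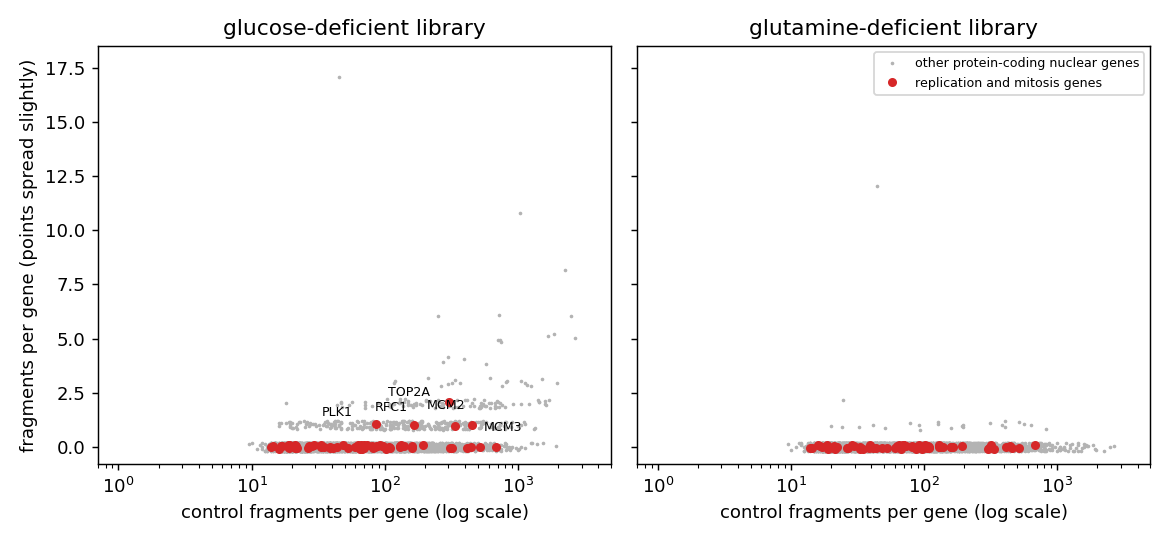
Fragments per gene in the glucose-deficient (left) and glutamine-deficient library (right) against control fragments per gene (log axis); red points are the 66 members, grey points other protein-coding nuclear genes tested, with a small vertical spread added, and NOL4L, at 45 fragments, lies above the left panel. At left 5 members lie above 0, and at right all 66 lie at 0.

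Between the deprived libraries the members had 6 fragments with glucose deprivation and 0 with glutamine deprivation (ratio above 1.15 by its exact conditional interval). Other protein-coding nuclear genes had 674 and 35, a ratio of 18.8 (13.4 to 27.2), so the direction is that of the other genes. The members' difference was not distinguishable from theirs at this depth.

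Other genes of the same processes were taken from lists by function. On all 4 lists every listed gene was at least 2-fold lower in RPM in both deprived libraries, as were 99.9% of all genes, but under both other scalings 0 were lower and 26 to 29 of 29 replication, 43 to 44 of 44 mitosis, 12 to 13 of 13 cohesin and 15 to 16 of 16 G1 genes were higher. These counts are no result about the lists, and genes at 0 fragments owe a higher value there to the offset. Without glutamine 0 genes of the lists had a fragment, against 0.533% of protein-coding nuclear genes. The counts with a fragment without glucose stand against 9.53% of protein-coding nuclear genes, and the kept rates against 1.35 per 1000 in other protein-coding nuclear genes, a value inside the interval of each of the 4 lists. Of 40 further replication genes 29 were listed, led by the maintenance methyltransferase DNMT1 (216 control RPM), the chromatin assembly factor subunit CHAF1A (85.7), the checkpoint mediator CLSPN (84.7) and the kinase CDC7 (70.3). Their median log2 ratios in RPM were −4.53 and −4.55 without glucose and without glutamine. Of the 29 genes 7 had a fragment without glucose, 1.97 per 1000 control fragments (0.852 to 3.89). Of 61 further mitosis genes 44 were listed, led by the microtubule polymerase CKAP5 (242 control RPM), the condensin subunit SMC4 (150), the spindle protein NUSAP1 (112) and the phosphatase CDC25A (84.1). Their medians were −3.89 and −3.90, and 4 of the 44 had a fragment without glucose, 1.31 per 1000 (0.528 to 2.70), of which CKAP2 held 4 fragments.

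All 13 cohesin genes were listed, with the ring subunits SMC1A at 381 and SMC3 at 93.3 control RPM and the alternative subunits STAG2 at 88.3 and STAG1 at 59.2. Their medians were −5.36 and −5.35, and 2 of the 13, SMC1A and SMC3, kept a fragment without glucose, 0.957 per 1000 for the list (0.197 to 2.80). Of 29 genes of G1 control 16 were listed, with CCND2 (cyclin D2) at 212, the MuvB partner MYBL2 at 125, and the transcription factors E2F3 at 67.8 and E2F2 at 33.6 control RPM. Their medians were −3.84 and −3.84, and 4 of the 16 kept a fragment without glucose, 1.83 per 1000 (0.499 to 4.69). Per kilobase MYBL2 was at 168 control fragments, NUSAP1 at 146 and SMC1A at 137, all between PCNA at 280 and MCM3 at 124.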

How the data were processed

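RNA of 95D cells was sequenced in 3 libraries, 1 per culture; the labels' protocols describe capture with DAMER bait, while the titles name RNA sequencing. The authors deposited RPM values per listed region, per the file headers, in a control and glucose block and a control and glutamine block. For the glutamine-deficient library the description points to the glucose column, and the sample's own file, equal to the glutamine column, was followed instead. Alignment used HISAT2 2.0.5 and hg38, per the submitters' processing notes. How regions were called and annotated, and the use of strand in counting, were not given in the sources used here.

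With 1 library per group no test was run. Fragments were recovered from the steps of the RPM values, to the nearest 0.5 fragment, after an offset of 0.5 fragment per region was taken off. Values of a gene are sums over its regions. Ratios are of log2(RPM + 1), which understates differences of low genes, for genes with 1 RPM in at least 1 library, with a 2-fold threshold. Poisson, binomial and conditional binomial intervals at 95% cover counting error only. A region counted as shared when neighbouring entries had the same values and their genes lay within 5000 bases of each other, or the partner was not annotated. The name of 1 partner gene is not reported here. Exon lengths, coordinates and gene types come from GENCODE release 29 (GRCh38), which held all 66 genes. Promoters come from RefSeq, GRCh38.p14. The genes, lists and alternatives were chosen with earlier results of these data known. Named genes are those with a fragment in a deprived library, the 3 highest and the lowest per kilobase in each role, the 10 with the most control RPM, those the rule names singly, and the 4 with the most control RPM in each list. Other genes named were chosen after their values were seen. The recovery and the ratio were tested on simulated data. Software was Python 3.11.15 with pandas 2.3.3, matplotlib 3.10.9, scipy 1.17.1 and numpy 2.4.6.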

Additional observations from a re-analysis of the deposited data

How the results depend on the processing

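With 1 library per group, no replicate could be left out. No paired analysis was possible because each group had 1 library and the labels give no replicate numbers. The count of 66 lower genes held within 1.5 times under both other pseudocounts, both other filters, the offset taken off, shared regions left out and the highest region only, in both comparisons. It fell to 0 in both without the ATF4 family in the totals and with median-of-ratios scaling, which rests on 23 genes. The glucose and glutamine medians, −4.21 each, were then 2.37 and 2.16 with ATF4 out and 2.91 and 3.15 with median-of-ratios scaling, where members at 0 fragments owe their value to the offset. The cause of the other moves was not tested. They were −6.86 and −6.86 at a pseudocount of 0.1 RPM, −2.23 and −2.23 at 5 RPM, −4.38 and −4.38 at a filter of 5 RPM (61 genes), and −3.36 and −3.36 by the highest region. Thinned to the smallest total in a single random draw, the glucose-deficient library left 2 members with a fragment and 0.263 per 1000. By the highest region per kilobase, 6 of the 10 leading members were shared with the order by sum. Without NOL4L, RAD51B and UQCC1, a choice made after seeing the data, other protein-coding genes kept 1.21 per 1000 without glucose and 0.0464 without glutamine. With at most 2 fragments per member, the depth limits every single-gene value of the deprived libraries.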
